A study of Mus musculus with 4 samples.

Results

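The complement C1q chains and the scavenger and clearance receptors of foetal liver macrophages were followed by 10 genes: C1qa, C1qb, C1qc, Msr1, Cd163, Marco, Mrc1, Timd4, Cd5l and Vcam1. Every probe set that the platform annotation gives to exactly 1 of these symbols was taken, which made 18 of 45037 probe sets and 10 of 18193 genes, and 4 of the genes (C1qb, Msr1, Marco and Vcam1) had more than 1. The rule reads the annotation only, though the genes were proposed with earlier results of these data known.

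RNA came from haematopoietic progenitors of mouse foetal liver at E13.5, sorted as lineage-negative, cKit-positive and Sca1-positive (LSK) cells. All embryos were labelled female and Hes1 GFP/WT, so that a GFP reporter sat in 1 allele of Hes1, a repressor gene activated by Notch, in every sample. The groups were HES1-GFP positive (1 array) and HES1-GFP negative (3 arrays). The labels do not say how many embryos or sorts stand behind a sample, nor which antibodies made up the lineage mixture, and the spread between the negative arrays may be partly technical. Values are log2 probe set intensities after the authors' RMA normalization, without detection calls, and levels of different probe sets are not comparable with each other.

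Macrophages of the foetal liver sit at the centre of erythroblastic islands, where they hold maturing erythroid cells, take up their expelled nuclei and recycle iron. C1q, the recognition part of the classical complement pathway, is built from the products of C1qa, C1qb and C1qc and is made mainly by macrophages rather than by hepatocytes. Scavenger receptors bind modified lipoproteins, microbes and cell debris, and Timd4 binds phosphatidylserine on dying cells. Mature macrophages are not part of the LSK definition.

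The 4 arrays were nearly equal in overall brightness, with median intensities of 75.0 on the array labelled positive and 74.8 to 76.1 on the negative arrays on the linear scale. The transcript of Hes1, which is not the GFP signal named in the labels, did not follow them. Hes1 had a log2 intensity of 6.57 on the array labelled positive, against 8.78, 9.07 and 6.70 on negative replicates 1, 2 and 3. The array labelled positive was thus the lowest, and negative replicate 3 lay close to it. The difference from the negative mean was -1.62, but replicate 3 was nearly as low, so it rests on replicates 1 and 2. Since the Hes1 transcript did not follow the labels, the groups are named by their labels. Directions hold for the labelled arrays. Of 14 stem and progenitor genes, 1 lay below, 8 within and 5 above the range of the negative arrays, where 23.0% of all genes lay below and 23.6% above. Kit, the receptor used in the sort, was at 10.13 on the array labelled positive, against 9.90, 9.72 and 9.68 on negative replicates 1, 2 and 3. The differences of its 2 probe sets were 0.37 and 0.07. Flt3, the 1 gene below the range, was at 11.065, against 12.12, 11.95 and 11.63 in the same order. Ly6a, which encodes Sca1, had no probe set of its own symbol.

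All 18 probe sets had a lower value on the array labelled positive than the mean of the negative arrays, with a median log2 difference of -2.00 and a range of -3.31 to -0.68. The median over all probe sets was -0.01. The difference did not pass the test for any of them. limma called 0 of the 18 lower at an adjusted p under 0.05, as it called 0.0% of all 45037 probe sets lower and 0.0% higher. At an unadjusted p under 0.05 limma gave 2 of the 18 and 2032 of all probe sets, 1.43% of all being lower and 3.09% higher. The lone array labelled positive was assumed to vary like the negative arrays, whose own spread in these genes was wide.

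Negative replicate 3 stood apart from the other negative arrays. In all 18 probe sets, both the array labelled positive and negative replicate 3 had values lower than negative replicates 1 and 2, an order held by 17.8% of all probe sets. In 17 of the 18 (all but that of Cd163) the gap was at least 1 log2 unit, against 1.45% of all probe sets. Against negative replicates 1 and 2 taken singly, the array labelled positive was at least 1 log2 unit lower in 18 of 18 probe sets each time, where 6.77% and 6.4% of all probe sets were. The median differences were -2.78 and -2.69. Against negative replicate 3 it was at least 1 log2 unit lower in 3 of 18 (4.04% of all probe sets) and at least 1 log2 unit higher in 1 (4.45%), with a median of -0.23. Negative replicate 3 was itself lower than negative replicate 1 by a median of 2.73 and a range of 0.40 to 4.38 log2 units. Between negative replicates 2 and 1 the members split evenly, 9 lower and 9 higher, with a median difference of 0.01.

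**Figure D1:**
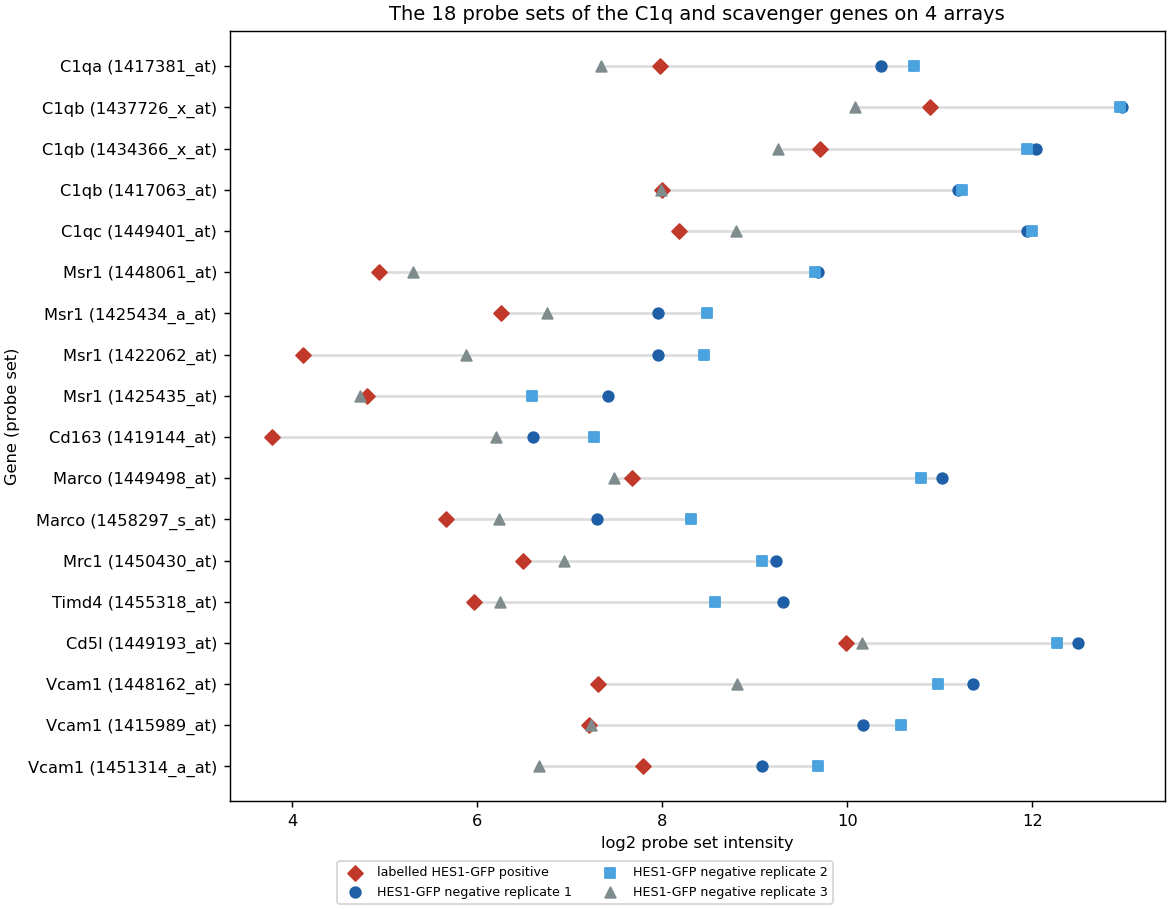
Log2 intensity (horizontal axis) of each of the 18 probe sets (vertical axis) on the array labelled HES1-GFP positive (red diamonds) and on HES1-GFP negative replicates 1, 2 and 3 (circles, squares and triangles), with 1 symbol per array. The diamond and the triangle lie left of the circle and the square in all 18 rows.

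The array labelled positive was lower than all 3 negative arrays in 11 of 18 probe sets, where 23.6% of all probe sets were. It lay within the range in 7 and above it in 0 (23.2% of all probe sets). In 3 of 18 it lay at least 1 log2 unit below the range, against 0.631% of all probe sets. Those 3 were 1 probe set each of Cd163, Msr1 and Vcam1. Without negative replicate 3 both counts were 18 of 18, and the median difference was -2.82. Both counts therefore rest on that array.

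**Figure D2:**
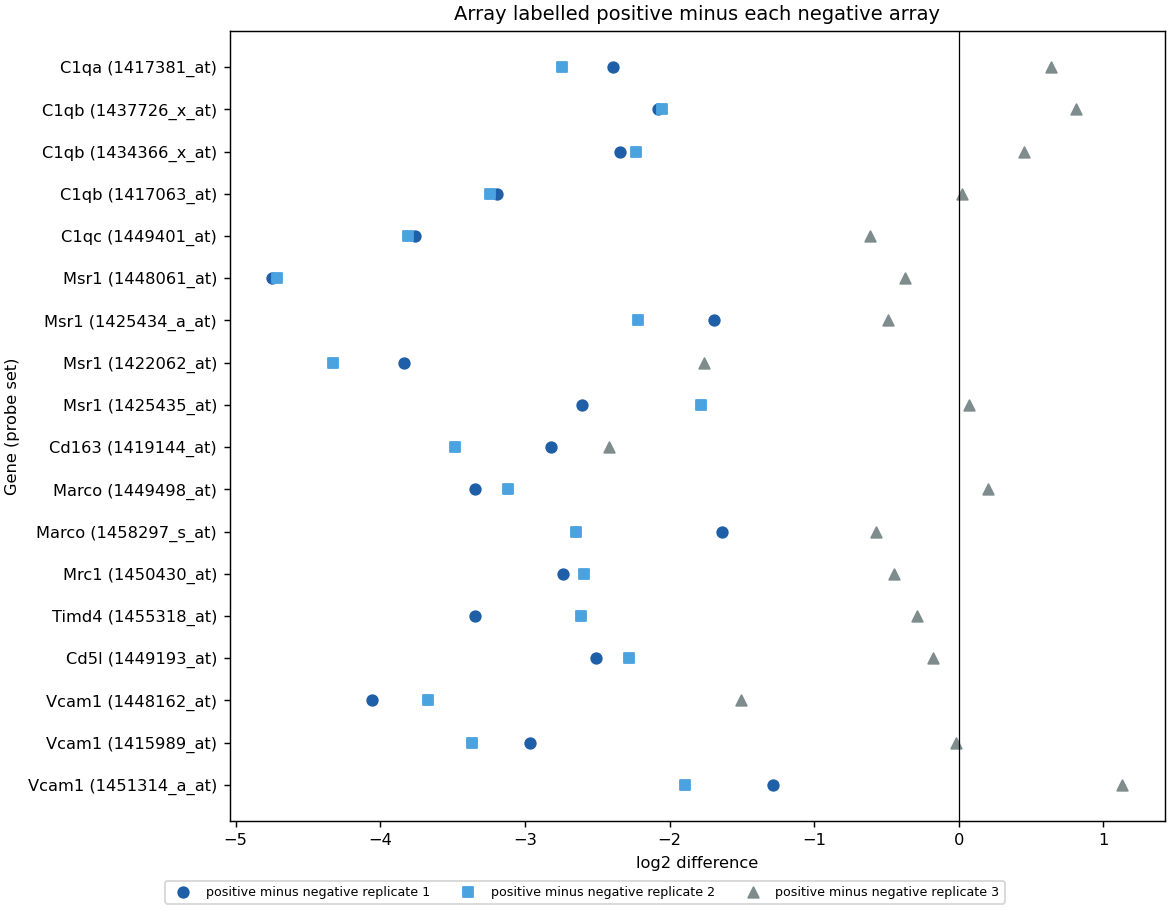
Log2 difference (horizontal axis) between the array labelled positive and each negative array (circles, squares and triangles for replicates 1, 2 and 3) for the 18 probe sets (vertical axis), with a line at 0. Against replicates 1 and 2 every point is under -1, and against replicate 3 the points run from -2.42 to 1.13.

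The 3 C1q chains had negative replicates 1 and 2 close together at the top and the other 2 arrays well under them. C1qa, the A chain (probe set 1417381_at), was at 7.98 on the array labelled positive, against 10.37, 10.72 and 7.34 on negative replicates 1, 2 and 3. Replicate 3 was the lowest array here. C1qc, the C chain (1449401_at), was at 8.18 on the array labelled positive, against 11.94, 11.99 and 8.80 on negative replicates 1, 2 and 3. In C1qc the array labelled positive was the lowest, and it lay 0.61 log2 units below the negative range. The difference was -1.50 for C1qa (SE 1.57, limma adjusted p = 1.00) and -2.73 for C1qc (SE 1.54, limma adjusted p = 1.00). Without negative replicates 1, 2 and 3 that of C1qa was -1.05, -0.88 and -2.57, and that of C1qc -2.21, -2.19 and -3.78.

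C1qb, the B chain, had 3 probe sets, and in each the array labelled positive lay within the negative range, just above replicate 3. Probe set 1437726_x_at was at 10.89 on the array labelled positive, against 12.97, 12.94 and 10.08 on negative replicates 1, 2 and 3. Probe set 1434366_x_at was at 9.70, against 12.04, 11.94 and 9.25 in the same order. Probe set 1417063_at was at 8.0, against 11.19, 11.24 and 7.98. The suffix x marks probes that may share sequence with other transcripts, and the probe set without it gave the widest difference of the 3, -2.14, against -1.11 and -1.38. Without negative replicate 3 the 3 differences were -3.22, -2.07 and -2.29, and without replicate 1 they were -1.61, -0.62 and -0.89 (-1.59, -0.63 and -0.95 without replicate 2). In all 3 probe sets negative replicate 3 was lowest and the array labelled positive next, and the limma 95% interval of the difference included 0 in each.

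In the RefSeq gene table (GRCm38.p6) the C1q genes lie side by side on chromosome 4 in the order C1qb, C1qc and C1qa, with no other protein-coding gene between them. The nearest protein-coding genes with a probe set did not show this split of the arrays. Beyond C1qb these were Lactbl1, Tex46 and Kdm1a, a histone demethylase, and beyond C1qa they were Epha8, an ephrin receptor, Zbtb40 and Wnt4, a signalling ligand. Kdm1a was at 11.08 on the array labelled positive, against 10.66, 11.52 and 11.24 on negative replicates 1, 2 and 3. Epha8 was at 4.57, against 4.61, 4.31 and 5.27. Epha8 and Tex46, the latter at 4.03 to 4.63, were under the array median on every array, so a split could hardly show in them. In 0 of the 6 neighbours did the array labelled positive and replicate 3 both lie below the remaining arrays. Zbtb40, with a difference of -1.09 (limma adjusted p = 1.00), had its highest value on negative replicate 3, at 9.36, against 7.57 on the array labelled positive.

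**Figure D3:**
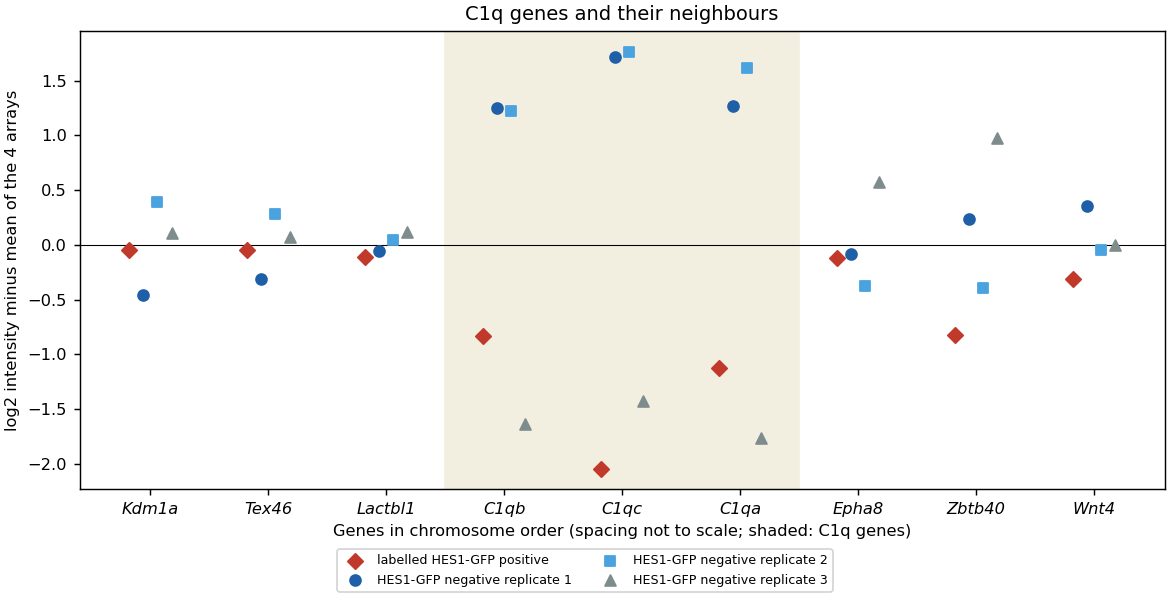
Log2 intensity minus the mean of the 4 arrays (vertical axis) for the C1q genes (shaded, the probe set of highest mean of each) and 3 neighbours on each side, in chromosome order (horizontal axis, spacing not to scale). Red diamonds are the array labelled positive, and circles, squares and triangles are negative replicates 1, 2 and 3. The separation of the circle and square from the other 2 symbols is seen in the 3 C1q genes and in none of the 6 neighbours. Among these, Tex46 and Epha8 were dim on every array.

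Promoter windows from RefSeq (GRCm38.p6), from 250 bases before to 50 bases after the gene start, were at hand for 7 of the 10 genes. They were searched on both strands for GAGGAAG, the core of sites of the PU.1 family, for TGCTGAC, a part of the MAF recognition element, and for TTTCNNTTT, the core of interferon response elements. PU.1 and MAF factors are regulators of macrophage genes. GAGGAAG was found in 4 of the 7 windows (C1qc, Marco, Mrc1 and Cd5l) and in 13.6% of all 32851 windows. TGCTGAC was found in 1 of 7 (Timd4) and in 4.67% of all, and TTTCNNTTT in 0 of 7 and in 10.6% of all. The matches did not overlap each other. A match describes letters only, not a bound site.

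The windows of the neighbouring genes C1qb and C1qc are shown because both had negative replicates 1 and 2 far above the other arrays. The C1qc window holds an exact match and that of C1qb none, though the latter holds cttcct, the same letters without the last. That of Mrc1 is shown as the only one with 2 matches, and that of Timd4 as the only one with the MAF letters. C1qb is chr4:136886151-136886450 and C1qc chr4:136892865-136893164, both on the minus strand. Mrc1 is chr2:14229164-14229463 and Timd4 chr11:46810549-46810848, both on the plus strand. Each is written 5′ to 3′ along the gene, and capitals mark the matches, which all lie on the opposite strand and so read CTTCCTC or GTCAGCA.
C1qb: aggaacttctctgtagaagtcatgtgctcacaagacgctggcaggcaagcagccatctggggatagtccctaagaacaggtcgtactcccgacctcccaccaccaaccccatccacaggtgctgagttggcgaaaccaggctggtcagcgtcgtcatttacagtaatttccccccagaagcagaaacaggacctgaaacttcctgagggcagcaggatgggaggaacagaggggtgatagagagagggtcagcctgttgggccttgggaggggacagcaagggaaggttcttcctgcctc
C1qc: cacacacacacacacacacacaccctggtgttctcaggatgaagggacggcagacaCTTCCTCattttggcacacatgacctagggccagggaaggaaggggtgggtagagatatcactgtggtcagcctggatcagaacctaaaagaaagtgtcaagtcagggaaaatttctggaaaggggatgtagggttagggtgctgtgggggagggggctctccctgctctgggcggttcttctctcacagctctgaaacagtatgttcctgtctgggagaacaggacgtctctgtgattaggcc
Mrc1: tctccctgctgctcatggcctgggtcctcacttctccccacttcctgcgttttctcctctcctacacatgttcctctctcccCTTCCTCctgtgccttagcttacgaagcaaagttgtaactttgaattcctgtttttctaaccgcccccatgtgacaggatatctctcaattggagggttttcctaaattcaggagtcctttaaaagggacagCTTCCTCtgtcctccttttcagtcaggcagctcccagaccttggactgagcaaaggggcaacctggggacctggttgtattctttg
Timd4: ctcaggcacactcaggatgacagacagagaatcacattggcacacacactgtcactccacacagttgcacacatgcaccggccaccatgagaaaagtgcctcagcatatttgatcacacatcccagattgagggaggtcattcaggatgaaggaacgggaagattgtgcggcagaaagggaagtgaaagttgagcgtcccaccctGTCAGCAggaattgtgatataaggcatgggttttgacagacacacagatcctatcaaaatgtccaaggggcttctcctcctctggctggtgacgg
The match begins 194 bases before the start in C1qc, 168 and 36 bases before it in Mrc1, and 45 bases before it in Timd4.

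Among the scavenger receptors, Msr1, the class A receptor for modified lipoproteins, had 4 probe sets and the widest spread of the members. Probe set 1448061_at was at 4.94 on the array labelled positive, against 9.69, 9.65 and 5.31 on negative replicates 1, 2 and 3. Probe set 1422062_at was at 4.12, against 7.96, 8.45 and 5.88. Both have replicates 1 and 2 high and the array labelled positive lowest, but the distance to replicate 3 differed, at 0.37 and 1.76 log2 units. Probe set 1425434_a_at was at 6.26, against 7.95, 8.48 and 6.75. Probe set 1425435_at was at 4.81, against 7.41, 6.59 and 4.74, and there replicate 3 was the lowest. The differences of the 4 ran from -3.31 to -1.44, and that of 1425435_at was -0.86, -1.27 and -2.19 without negative replicates 1, 2 and 3. That of 1422062_at had an unadjusted limma p of 0.0488 and an adjusted p of 1.00.

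Cd163, the receptor that takes up haemoglobin bound to haptoglobin, set the arrays apart in another way. Probe set 1419144_at was at 3.78 on the array labelled positive, against 6.60, 7.26 and 6.20 on negative replicates 1, 2 and 3. Here negative replicate 3 stayed within 0.40 log2 units of replicate 1, and the array labelled positive lay 2.42 below the lowest negative array. The difference was -2.91 (SE 0.49), with a limma 95% interval of -4.29 to -1.52. It was the only 1 of the 18 with an unadjusted p under 0.01, at 0.00472, and its adjusted p was 0.846. On the array labelled positive the probe set was dim, at a linear intensity of 13.7, under the median of that array.

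Marco, a class A scavenger receptor of resident macrophages that binds bacteria, was at 7.67 on the array labelled positive in probe set 1449498_at, against 11.02, 10.79 and 7.47 on negative replicates 1, 2 and 3. In probe set 1458297_s_at it was at 5.66, against 7.30, 8.31 and 6.23. Replicate 3 was the lowest array in the one and the array labelled positive in the other. The suffix s marks probes shared by several transcripts. The differences were -2.09 and -1.62, both with a limma adjusted p of 1.00. The first was -3.23 without negative replicate 3.

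Mrc1, the mannose receptor, a lectin that clears glycoproteins, was at 6.49 on the array labelled positive (1450430_at), against 9.22, 9.08 and 6.94 on negative replicates 1, 2 and 3. Timd4, the phosphatidylserine receptor of resident macrophages, was at 5.96 (1455318_at), against 9.31, 8.57 and 6.25. Cd5l, a secreted protein with scavenger receptor domains that binds lipids and is made by tissue macrophages, was at 9.98 (1449193_at), against 12.49, 12.27 and 10.16. In these 3 genes the array labelled positive was the lowest, by 0.45, 0.29 and 0.18 log2 units from replicate 3, while replicates 1 and 2 stood at least 2.11 log2 units above both. Their differences from the negative mean were -1.92, -2.08 and -1.65 in the same order, and limma gave each an adjusted p of 1.00.

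Vcam1, the adhesion molecule by which island macrophages hold erythroblasts through the integrin of Itga4 and Itgb1, had 3 probe sets that did not give the same picture. Probe set 1448162_at was at 7.31 on the array labelled positive, against 11.36, 10.98 and 8.81 on negative replicates 1, 2 and 3. Probe set 1415989_at was at 7.21, against 10.17, 10.58 and 7.23. Probe set 1451314_a_at was at 7.79, against 9.07, 9.69 and 6.66. The array labelled positive thus lay 1.50 log2 units below replicate 3 in the first, level with it in the second and 1.13 above it in the third. The differences from the negative mean were -3.08, -2.12 and -0.68. That of the third was -0.38, -0.08 and -1.59 without negative replicates 1, 2 and 3. Vcam1 is also made by endothelium and stroma, and the values of endothelial genes are given below.

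Of the 18 probe sets, 12 lay above the median of all probe sets on every array. The other 6, among them 3 of Msr1 and that of Cd163, fell under it on at least 1 array. The limma 95% interval of the difference included 0 in 16 of the 18 probe sets, the exceptions being Cd163 and 1 of Msr1. The difference moved by over 1.5 times in 7 of the 18 when 1 negative array was left out, namely C1qa, the 3 of C1qb, and 1 each of Msr1, Marco and Vcam1.

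Other genes of macrophages were taken from a list of 30, of which 29 had a probe set and the brightest of each gene was used. The array labelled positive was below the negative arrays in 12 of them, within their range in 15 and above it in 2, to be read against the same 23.0% and 23.6% of all genes. Their median difference was -0.68, against -0.001 over all 18193 genes, and 0 passed limma's test in either direction. Taken against single negative arrays, the median was -1.17 for replicate 1, -1.08 for replicate 2 and -0.02 for replicate 3. In 19 of the 29 the array labelled positive and replicate 3 both lay below the other 2 arrays, as in 17.4% of all genes. The summed linear intensity of the list was 30650 on the array labelled positive and 31805 to 48531 on the negative arrays, with replicate 3 the lowest of these. The brightest genes weigh most in such sums, here Lyz2, Tyrobp and Csf1r. In bulk RNA fewer cells of a type and less RNA per cell cannot be told apart.

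Siglec1, a sialic acid receptor of island macrophages, was at 5.19 on the array labelled positive, against 9.22, 8.57 and 6.81 on negative replicates 1, 2 and 3. This was its brightest probe set, and the differences of its 3 probe sets ran from -3.01 to -0.25. Csf1r, the growth factor receptor on which most macrophages depend, was at 11.63, against 12.88, 12.97 and 12.13. In both, as in C1qc, the array labelled positive was lowest and replicate 3 next. Cd14, a co-receptor for lipopolysaccharide, was at 5.56, against 6.97, 8.25 and 7.39, and Nr1h3, a sterol-sensing nuclear receptor, was at 5.85, against 8.63, 7.33 and 7.54. In these last 2 genes replicate 3 lay among the other negative arrays. The limma adjusted p was 1.00 for all 4 genes.

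Some further genes of the list were picked after their values were seen. Clec4f and Vsig4, receptors of Kupffer cells, were at 6.43 and 5.67 on the array labelled positive. Clec4f was at 10.26, 10.52 and 5.88, and Vsig4 at 9.24, 8.94 and 4.23, on negative replicates 1, 2 and 3. Adgre1, an adhesion receptor used to mark mouse macrophages, was at 7.54, against 9.39, 9.28 and 5.64. In these 3 replicate 3 was the lowest array. Lyz2, a lysozyme of macrophages and granulocytes alike, was at 12.98, against 12.41, 12.34 and 13.08, and Itgam, the Mac-1 integrin chain, at 6.18, against 4.71, 5.58 and 6.24. The order of arrays was thus turned in Lyz2 and Itgam, though Itgam was dim and above the array median on only 1 array. Granulocytes also express both genes, and their part in these values was not tested. Tyrobp, an adaptor of many myeloid receptors, was nearly level, at 12.77 against 12.82, 12.89 and 12.86.

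Genes that act with the members were counted in the same way, and 0 passed limma's test in any of these lists. Of all genes, 23.0% lay below and 23.6% above the range of the negative arrays. Of 19 other scavenger receptors, the array labelled positive was the lowest in 10 and the highest in 2, with a median of -0.58. Lrp1, an endocytic receptor for many ligands, was at 6.18 on the array labelled positive, against 8.78, 7.65 and 7.27 on negative replicates 1, 2 and 3. Cd5 went the other way, at 5.46 against 4.65, 3.91 and 3.93, under the array median on every array. Of 23 other complement components and receptors, 6 lay below and 4 above, near the shares of all genes, with a median of -0.15. C5ar1, the receptor for the C5a fragment, was at 11.30, against 10.26, 10.05 and 10.64, and Cfb, a protease component of the alternative pathway, at 5.68, against 6.62, 6.05 and 6.71. The 2 probe sets of C5ar1 differed from the negative mean by 0.99 and -0.08.

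Of 20 genes for the uptake of apoptotic cells, 4 lay below and 4 above the range of the negative arrays, with a median of -0.01. These counts are near the 23.0% and 23.6% of all genes. Itgb3, an integrin chain that also marks megakaryocytes, was at 7.83 on the array labelled positive, against 8.83, 8.65 and 8.98 on negative replicates 1, 2 and 3. Gulp1 was higher, at 7.41 against 5.63, 4.01 and 6.59, with differences of 0.02 to 2.00 over its 3 probe sets. Of 16 genes of erythroblastic islands and iron recycling, 2 lay below and 3 above, against the same shares, with a median of 0.07. Slc11a1, a metal transporter of phagosomes, was at 6.42, against 7.39, 8.48 and 6.64. Hpx lay above the range, at 4.77 against 4.07, 3.90 and 4.25, under the array median on every array.

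Likeness to the C1q chains was measured over the 4 arrays. The log2 values of each gene were centred on their mean, and the root mean square distance to the mean profile of the 3 chains was taken. The 10 nearest genes outside the members were Gfra1, Mzb1, Tox2, Ikzf3, Hmox1, Vpreb3, Trbv1, Clec4n, C6 and Mertk, at distances of 0.11 to 0.19 log2 units. Hmox1, the haem-degrading enzyme, was at 9.52 on the array labelled positive, against 12.46, 12.42 and 8.99 on negative replicates 1, 2 and 3. Mertk, a receptor for dying cells, was at 5.98, against 8.32, 8.78 and 5.79. Vpreb3, a protein of B cell precursors, was at 7.74, against 10.63, 10.58 and 7.84, and Mzb1, a chaperone of immunoglobulin-making cells, at 8.42, against 11.20, 11.37 and 8.50. Of the other members Marco was nearest, at 0.23, and Cd163 farthest, at 1.09. The chains themselves lay at 0.15 (C1qa), 0.31 (C1qb) and 0.41 (C1qc) from their mean profile. C1qb and C1qc were thus farther from it than the 10 genes above. With 4 arrays that differ in many genes at once, such likeness describes these arrays only.

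Markers of other cell types were summed in the same way, and 0 genes of these lists passed limma's test. The summed linear intensity of 12 B lineage genes was 4531 on the array labelled positive, against 26996, 25764 and 4732 on negative replicates 1, 2 and 3. All 12 had the array labelled positive and negative replicate 3 below the other 2 arrays, as 17.4% of all genes did. In 8 the array labelled positive lay below the negative range, as in 23.0% of all genes. The sum of 18 endothelial genes was 4372, against 8681, 8539 and 5187, with 12 below the range and 1 above it, and 9 of the 18 had the order just described. Cdh5, an endothelial cadherin, had 4.83, against 9.71, 9.45 and 6.16. Tek, the angiopoietin receptor, went the other way, at 7.36 against 6.19, 6.04 and 6.72. The sum of 15 monocyte and granulocyte genes ran the other way, at 95519 against 47653, 49726 and 94500. Of them 0 lay below the range and 8 above it, where 23.6% of all genes lay above. The sum of 13 hepatoblast genes was also higher on the array labelled positive and replicate 3, at 3786.5 against 2933, 2299 and 3452. Of them 1 lay below the range and 4 above it. Sums for stem and progenitor genes were 25780, against 27347, 23444 and 24726. Of these 14 genes, 6 had the array labelled positive and negative replicate 3 below the other 2 arrays. Liver mesenchyme sums were 1056, against 1143, 1294 and 1200, and 1 of the 13 genes lay above the array median on all 4 arrays. The part of these other cells in the values of the members was not tested.

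**Figure D4:**
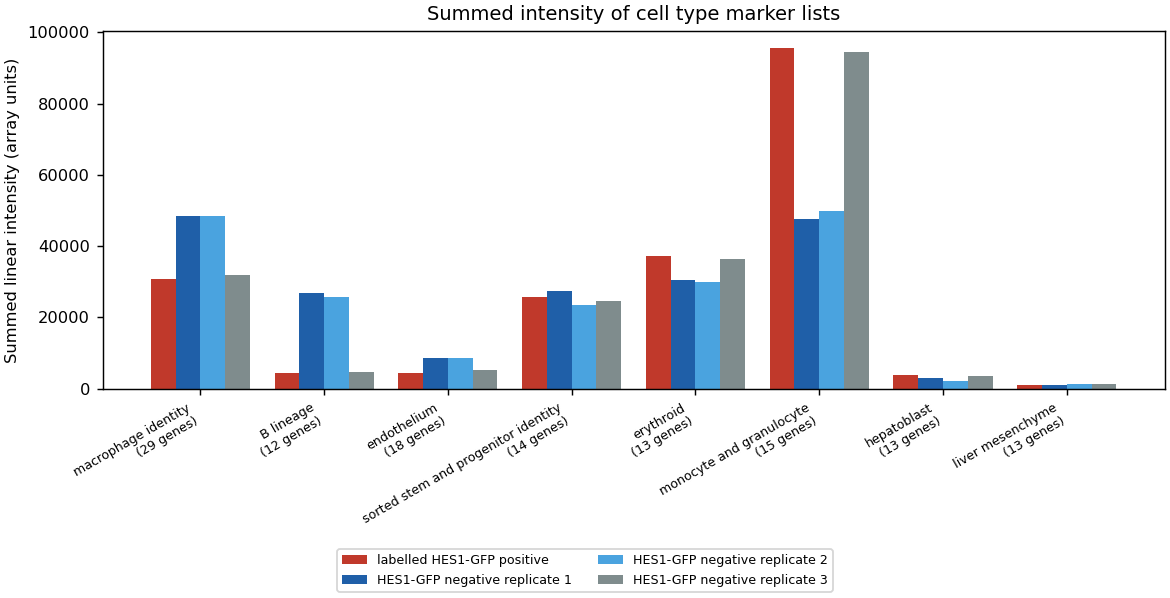
Summed linear intensity (vertical axis, array units, 1 probe set per gene) of 8 marker lists (horizontal axis, with the number of genes measured) on the array labelled positive (red) and negative replicates 1, 2 and 3 (dark blue, light blue and grey). The macrophage, B lineage and endothelium sums are lower on the array labelled positive and negative replicate 3 than on the other 2 arrays. The monocyte and granulocyte, erythroid and hepatoblast sums are higher on them. The brightest genes of a list weigh most in its sum.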

How the data were processed

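The authors extracted total RNA with a column kit, amplified 5 ng with a Nugen Ovation system and labelled the cDNA with biotin, per the labels' protocols. The deposited intensities are linear, run from 4.27 to 27451.5 and were made with RMA per the submitters' processing notes. Its software and version are not stated there, and scanner files were not used here.

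Intensities were turned into log2 values without a pseudocount. After 64 control probe sets were set aside, 45037 remained, 34945 of them with 1 gene symbol. HES1-GFP positive (1 array) was compared with HES1-GFP negative (3 arrays) with lmFit and eBayes of limma 3.58.1 (run in R 4.3.3) over all probe sets, two-sided, with Benjamini-Hochberg adjustment at 0.05. The spread rests on 2 residual and 1.80 prior degrees of freedom. The code was checked on simulated data for the mean size of planted differences. How often the test calls such differences with these 4 arrays is not given here. The number of arrays limits the precision. Gene lists used the probe set of highest mean of each gene.

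The members, lists, motifs and tests were chosen with earlier results of these data known. The text names all member probe sets and Hes1, genes from the 4 of each list with the largest absolute t, the 10 nearest profiles and the C1q neighbours. Genes chosen otherwise are marked as such. RefSeq sequences are of GRCm38.p6. The alternatives were cyclic loess, log2(value + 16), a filter on level, trend and robust eBayes, 1 or averaged probe sets per gene, treat at 0.5, and leaving out each negative array.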

Additional observations from a re-analysis of the deposited data

How the results depend on the processing

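Under the 10 alternatives limma called 0 probe sets higher and 0 lower, with 2032 at an unadjusted p under 0.05 on all arrays and probe sets, 879 by treat and 3275 without negative replicate 3. All 144 differences of member probe sets or genes kept a negative sign, between -4.73 and -0.08, with adjusted p from 0.551 to 1.00. The filter on level, trend and robust eBayes, and 1 probe set per gene leave the difference of a probe set unchanged. Its sign could not turn under these alternatives. The count below the negative range was 11 of 18, 7 of 10 genes with 1 probe set per gene, and 11 to 18 of 18 with a negative array left out. The count at least 1 log2 unit below it was 3 of 18, 1 of 10 genes with averaged probe sets, and 3 to 18 of 18 with a negative array left out. In both counts the 18 came without replicate 3, since the range of the remaining 2 arrays then excludes the lowest negative array. With 10 genes in place of 18 probe sets the counts are smaller by construction. The median difference was -2.00, and -1.49 to -2.82 with a negative array left out. No paired analysis was possible, because only 1 array is labelled positive and the replicate numbers are not said to mark pairs. With 1 array labelled positive, its own spread is unknown, and dim probe sets such as that of Cd163 have no detection calls.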

Other observations

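Probe sets of the same gene disagreed for some macrophage genes outside the 10, which were picked after their values were seen. Spic, the transcription factor of iron-recycling macrophages, differed by 0.11 log2 units in its brightest probe set and by -3.30 in the other. Cx3cr1, the fractalkine receptor, differed by -0.68 and 1.05, and Axl, a receptor for dying cells, by -1.57 and -0.02.

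Erythroid genes, whose products mark the cells that island macrophages hold, had a summed intensity of 37371 on the array labelled positive, against 30537, 29875 and 36331 on negative replicates 1, 2 and 3. Of 13 measured, 6 lay above the negative arrays, 7 within their range and 0 below, where 23.6% of all genes lay above and 23.0% below. The median difference was 0.34, and 0.04 against replicate 3 alone. limma called 0 of them. Hbb-y, an embryonic globin, was at 10.17 on the array labelled positive, against 8.32, 6.65 and 9.41. The differences of its 3 probe sets ran from 0.56 to 2.07.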
